A study of Mus musculus with 26 samples.

Results

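The DKO-only regions are the 21621 stretches of the mouse genome that the region list for H3K27me3 in DPPA2/4 double knockout cells holds and that share no base with any region of the matching wild-type list. They were chosen by the total H3K27me3 signal itself, since each list was drawn from the H3K27me3 libraries of its own genotype. They make up 66.8% of the 32352 regions in the DKO list, and the remaining 10731 overlap a wild-type region and are called shared regions here. In the other direction, 9817 of the 21436 wild-type regions (45.8%) overlap no DKO region, and these are called WT-only regions.

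The study tested a low-input sequential ChIP (reChIP) that asks whether 2 histone marks sit on the same chromatin fragment, and applied it to cells with and without DPPA2 and DPPA4. The cells were E14 mouse embryonic stem cells, an established line grown in serum and LIF, and clones labelled as of this line, namely WT clones 57 and 58 and DKO clones 43 and 53. Each clone gave a total H3K4me3 and a total H3K27me3 library, a K4-K27 library (H3K4me3 then H3K27me3) and a K27-K4 library (the reverse order), and WT clone 57 also gave an IgG–IgG control. The totals were a small part of the eluate of the first ChIP of each reChIP. Total H3K27me3 therefore shared its first pull-down with K27-K4, and total H3K4me3 shared its own with K4-K27. For E14 cells the paper describes such totals as noisier than the reChIPs, from a cell number near the lower limit for clear signal.

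Each genotype was therefore represented by 2 clones, all cultured alike, and p-values measure only the spread between these clones. The labels give the clones only as double knockout or wild type, and H3K4me3 at the promoters of the targeted genes could not check this. On the region at the Dppa2 promoter listed in WT clones, H3K4me3 was 1.90 and 0.77 in WT clones and 2.08 and 1.34 in DKO clones (log2 RPM per kb of region, the unit of all levels below). The stem cell markers Pou5f1, Nanog, Sox2, Zfp42 and Esrrb had an H3K4me3 region at the promoter in both genotypes. Col1a2 and Cd34 were taken as genes without the mark in stem cells. Col1a2 had a region in the WT list only, and Cd34 had 1 in both lists. Cdx2 and Gata6 had none in either. This is no check, since promoters of developmental regulators often carry H3K4me3 in these cells. The clone libraries held between 9242970 and 33848177 reads. Total H3K27me3 rested on 18429872 and 15601152 reads in WT clones and on 18294232 and 33848177 reads in DKO clones, so the pooled DKO depth was 1.53 times that of WT.

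H3K27me3 is placed by Polycomb repressive complex 2 and marks genes kept silent, above all the CpG-rich promoters of developmental regulators in embryonic stem cells, where it often sits with H3K4me3 in a state called bivalent. Outside such promoters the mark forms broad, low domains over intergenic and intronic sequence. DPPA2 and DPPA4 are small SAP-domain proteins that bind chromatin as a pair in embryonic stem cells and are known to keep H3K4me3 and H3K27me3 at a set of bivalent promoters.

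Sequences are shown for 2 kinds of DKO-only region, promoters with the largest H3K27me3 difference and distal regions without a read in WT clones. The first 4 are RefSeq promoter windows on GRCm38.p6, from 250 bases before to 50 after the start site, printed 5′ to 3′ on the strand of the gene with every CpG in capitals. Klhl13 (chrX:23365014-23365313, minus strand) has 16 CpGs in this window, Smim10l2a (chrX:56374267-56374566, plus strand) has 11, Arap2 (chr5:62766128-62766427, minus strand) has 47 and Efs (chr14:54926739-54927038, minus strand) has 27. The start site of Arap2 lies 177 bp outside its listed region, and the other windows overlap theirs.
Klhl13: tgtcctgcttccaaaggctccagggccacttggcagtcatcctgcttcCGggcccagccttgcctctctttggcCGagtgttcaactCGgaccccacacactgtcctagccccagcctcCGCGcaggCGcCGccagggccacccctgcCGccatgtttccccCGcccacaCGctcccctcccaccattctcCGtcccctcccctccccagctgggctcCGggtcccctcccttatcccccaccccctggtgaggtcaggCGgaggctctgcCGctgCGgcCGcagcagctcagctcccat
Smim10l2a: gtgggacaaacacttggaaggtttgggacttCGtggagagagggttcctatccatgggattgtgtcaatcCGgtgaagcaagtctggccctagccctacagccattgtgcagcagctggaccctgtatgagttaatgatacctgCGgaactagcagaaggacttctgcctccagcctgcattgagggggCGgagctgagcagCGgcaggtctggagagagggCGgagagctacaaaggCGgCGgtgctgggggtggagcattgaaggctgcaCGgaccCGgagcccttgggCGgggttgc
Arap2: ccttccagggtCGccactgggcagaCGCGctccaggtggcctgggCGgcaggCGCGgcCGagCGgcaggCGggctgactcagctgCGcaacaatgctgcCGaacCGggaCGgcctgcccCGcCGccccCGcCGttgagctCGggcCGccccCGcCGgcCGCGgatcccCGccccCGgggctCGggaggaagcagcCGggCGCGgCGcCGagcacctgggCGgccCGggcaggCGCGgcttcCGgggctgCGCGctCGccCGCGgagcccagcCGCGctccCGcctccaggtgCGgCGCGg
Efs: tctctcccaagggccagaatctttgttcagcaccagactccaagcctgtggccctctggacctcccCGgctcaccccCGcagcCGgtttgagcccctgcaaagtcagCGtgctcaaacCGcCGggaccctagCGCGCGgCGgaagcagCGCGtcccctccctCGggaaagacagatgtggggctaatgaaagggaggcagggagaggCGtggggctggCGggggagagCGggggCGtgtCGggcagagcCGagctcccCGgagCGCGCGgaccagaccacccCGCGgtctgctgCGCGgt

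Over all 32851 RefSeq windows of this length the median was 7 CpGs, with an interquartile range of 3 to 20, and 41.4% held at least 11. The other 2 sequences are whole DKO-only regions of 300 bp, printed on the plus strand, and were picked after their values were seen because neither WT clone had a read there. The region in an intron near Ms4a13 (chr19:11189401-11189700) has 1 CpG and 89.0% of its bases are repeat-masked, and that near Vrk1 (chr12:106052101-106052400) has 4 CpGs. DKO-only regions of 300 bp had a median of 2 CpGs and 11.8% had none, against a median of 3 in shared regions of that width.
Ms4a13 intron: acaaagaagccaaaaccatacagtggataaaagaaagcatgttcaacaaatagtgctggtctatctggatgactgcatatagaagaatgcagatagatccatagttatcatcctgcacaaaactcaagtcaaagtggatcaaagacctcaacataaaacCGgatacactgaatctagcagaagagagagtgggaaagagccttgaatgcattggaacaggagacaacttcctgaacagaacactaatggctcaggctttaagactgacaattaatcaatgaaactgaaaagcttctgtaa
Vrk1 intron: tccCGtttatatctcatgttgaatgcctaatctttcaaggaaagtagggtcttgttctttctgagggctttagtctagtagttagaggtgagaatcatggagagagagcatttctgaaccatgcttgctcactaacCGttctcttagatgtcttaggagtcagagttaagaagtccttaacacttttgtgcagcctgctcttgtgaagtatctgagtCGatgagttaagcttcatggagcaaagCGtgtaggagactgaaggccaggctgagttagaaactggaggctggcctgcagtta

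DKO-only regions were narrow. Their median width was 600 bp (interquartile range 300 to 1050), against 1500 bp (750 to 3300) in shared regions and 600 bp (300 to 900) in WT-only regions. All widths were multiples of 150 bp from 300 bp upwards. The smallest width was that of 5572 DKO-only regions (25.8%), compared with 6.64% of shared and 30.8% of WT-only regions. At the other end, 251 DKO-only regions (1.16%) reached 5 kb, compared with 14.9% of shared and 2.24% of WT-only regions. DKO-only regions outnumbered shared regions but covered less sequence, 19.7 Mb or 0.723% of the genome against 29.0 Mb.

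Most DKO-only regions lay away from genes. A promoter, taken as 1.5 kb either side of a RefSeq start site, was touched by 1607 of them (7.43%), against 28.3% of shared and 11.6% of WT-only regions. A further 1488 (6.88%) touched an exon, 5594 (25.9%) an intron and 12932 (59.8%) neither. Of shared regions 44.2% were intergenic, and of WT-only regions 56.4%. The median distance to the nearest start site was 25575 bp for DKO-only, 10478 bp for shared and 30585 bp for WT-only regions. Their sequence held 47.6% G and C and 1.00 CpG per 100 bases at the median. Shared regions held 49.4% and 1.44, and the genome as a whole 41.7% and 0.826. The composition of the DKO-only regions lay between that of the genome and that of the shared regions, and WT-only regions had the same medians (47.6% and 1.00). The 596 regions that were mostly repeat-masked (2.76%, against 0.978% of shared and 3.29% of WT-only regions) differed little from the rest in H3K27me3, with a median difference between genotypes of 0.55.

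**Figure D1:**
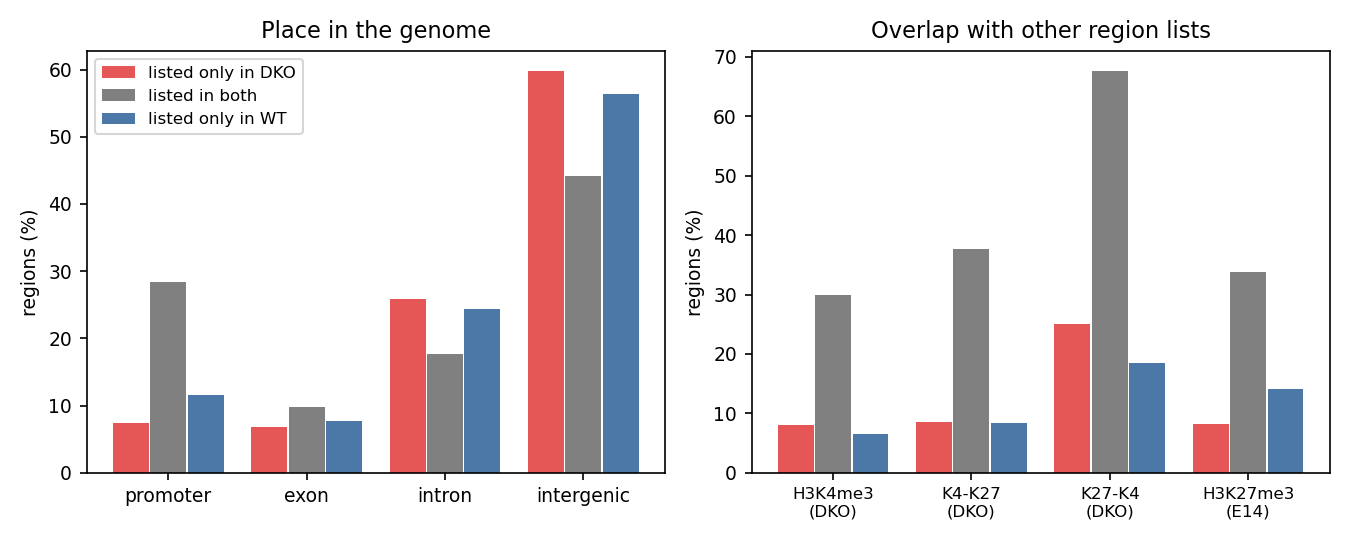
Percent of regions at promoters, exons, introns and intergenic sequence (left) and percent overlapping the DKO lists for H3K4me3, K4-K27 and K27-K4 and the E14 list for H3K27me3 (right), for regions listed only in DKO, in both genotypes (DKO regions) and only in WT. DKO-only regions reach 59.8% intergenic and 7.43% promoter. The E14 list overlaps 8.24% of them and 33.7% of shared regions.

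Most DKO-only regions stood apart from WT-listed sequence. The gap to the nearest WT region was 15150 bp at the median (interquartile range 2850 to 52200), and 2849 DKO-only regions (13.2%) lay within 1 kb of one. Of these, 492 touched a WT region without sharing a base. The gap to the next region of the DKO list itself was 4050 bp at the median, compared with 1500 bp for shared regions. The regions at the edge of the rule, in genome order, are given as examples. The DKO-only region at the promoter of Eya1, a phosphatase and transcriptional coactivator of organ development, abutted a WT region and had H3K27me3 levels of 0.20 and -0.49 in WT clones and 0.87 and 0.16 in DKO clones. A region in an intron of Arhgef4 that also abutted a WT region had 0.53 and 1.47 in WT and 0.71 and 0.90 in DKO clones, and another near Hs6st1 had 0.70 and 0.94 in WT and 1.87 and -0.17 in DKO clones. Just outside the rule, a shared region in an exon of Kcnq5 that overlapped a WT region by 150 bases had -0.05 and 0.89 in WT and 1.21 and 0.32 in DKO clones. The levels of the genotypes overlapped in all 4 of these regions. The next shared regions with so short an overlap lay near Gm46091, with 0.70 and 1.10 in WT and -0.46 and 1.24 in DKO clones, and near Mettl21c, with -0.47 and -0.35 in WT and 0.35 and 0.63 in DKO clones. Near Mettl21c both DKO clones were above both WT clones, although the region is not DKO-only.

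H3K27me3 in the DKO-only regions was lower in WT clones, where most regions still held reads. The median level was 0.12 in WT clone 57 and 0.00 in WT clone 58, and 0.54 in DKO clone 43 and 0.56 in DKO clone 53. Shared regions had medians of 0.81 and 0.45 in WT and 0.71 and 0.58 in DKO clones, and WT-only regions 0.99 and 0.77 in WT and 0.13 and 0.14 in DKO clones. DKO-only regions thus carried nearly the DKO level of shared regions, and the level in WT clones was about that of DKO clones at WT-only regions. These levels rest on few reads, with medians of 12 and 10 reads a region in WT and 16 and 30 in DKO clones.

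WT clones had H3K27me3 reads at nearly all DKO-only regions. WT clone 57 lacked a read at 16 of them and WT clone 58 at 35. The IgG–IgG library gave little to compare with, since it had no read at 12659 DKO-only regions (58.5%) and a median level of -2.31, which is that of 0 reads in a 300 bp region. DKO-only regions took 2.50% and 2.06% of all reads in WT and 3.06% and 2.99% in DKO clones. The share already present in WT clones was thus larger than the gain between genotypes. In bulk chromatin, fewer cells with the mark and less mark per cell cannot be told apart, and levels relative to library size do not show a change of the whole genome.

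Mean DKO minus mean WT H3K27me3 was 0.49 at the median of DKO-only regions, which is 1.40-fold, with an interquartile range of 0.25 to 0.79. It was 0.03 for shared regions and -0.72 for WT-only regions. The direction is fixed by the choice of regions and was not tested. Both DKO clones were above both WT clones at 11479 DKO-only regions (53.1%, against 39.8% of all DKO-listed regions) and below both at 91 (0.421%, against 3.86%), and at the other 10051 (46.5%) the levels of the genotypes overlapped. In the mirrored comparison, both DKO clones were below both WT clones at 68.2% of WT-only regions. With each library centred on its median over the DKO-listed regions, the difference at DKO-only regions was 0.16 and both DKO clones were above both WT clones at 25.2%, and the difference at shared regions was -0.30. DKO-only regions are most of the regions over which these medians were taken.

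Large differences were the exception. The DKO mean exceeded the WT mean by more than 1 on the log2 scale at 3086 DKO-only regions (14.3%), and at 1506 (6.97%) the DKO mean was the lower. The pairs of clones differed in the same direction but not to the same degree. DKO clone 53 was above WT clone 58 at 88.3% of DKO-only regions, and DKO clone 43 was above WT clone 57 at 78.1%. In shared regions these shares were 68.6% and 39.5%, so part of the distance to WT clone 58 was found there too.

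**Figure D2:**
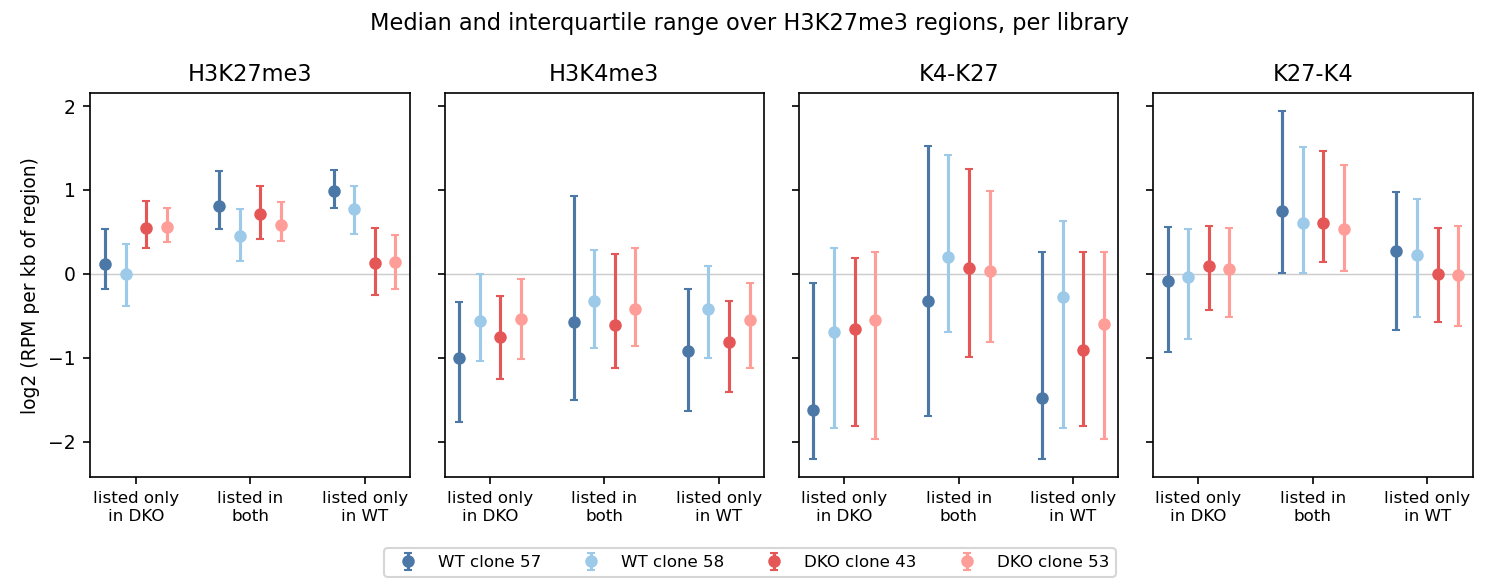
Median (points) and interquartile range (bars) over regions of the log2 RPM per kb in each clone library, for regions listed only in DKO, in both genotypes (DKO regions) and only in WT, in 4 panels by ChIP. In total H3K27me3 the DKO clones (0.54 and 0.56) lie above the WT clones (0.12 and 0.00) at DKO-only regions and below them at WT-only regions, while in the other panels the interquartile ranges of all 4 clones overlap.

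The lowest level of a listed region differed between the lists. Reads of the 2 clones of a genotype were pooled and scaled to their joint depth. No 300 bp region of the DKO list had fewer than 28 pooled DKO reads, or 1.79 RPM per kb, and no 300 bp region of the WT list had fewer than 22 pooled WT reads, or 2.15 RPM per kb. The lowest listed level was thus 1.20 times higher in WT. At the depth of the WT libraries, the lowest DKO level would have been 18.3 reads, short of the 22 seen in the WT list.

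Of the DKO-only regions, 5484 of the 5572 with a width of 300 bp (98.4%) had a DKO level below that of the lowest WT region of the same width. The same comparison could be made at 54 widths up to 8550 bp, with at least 20 WT regions each, for 21562 DKO-only regions. Of these, 13272 (61.6%) had a DKO level under the lowest WT region of their width and 8290 (38.4%) reached it. The median H3K27me3 difference was 0.50 in the former and 0.48 in the latter, and both DKO clones were above both WT clones at 51.1% and 56.3%. These groups were divided by the DKO level that chose the regions and differ in width (medians of 450 and 750 bp), so the values describe them and compare nothing. The part of depth in the lowest listed levels was not tested. In WT clones, 542 DKO-only regions of 300 bp (9.73%) reached the lowest DKO level and 39 (0.70%) reached the lowest WT level. At 750 bp these shares were 28.6% and 19%, at 1200 bp 29.1% and 11.7% and at 2700 bp 54.3% and 22.8%. Shares reaching the WT level are held low by the rule, since a region listed in WT could not be DKO-only.

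**Figure D3:**
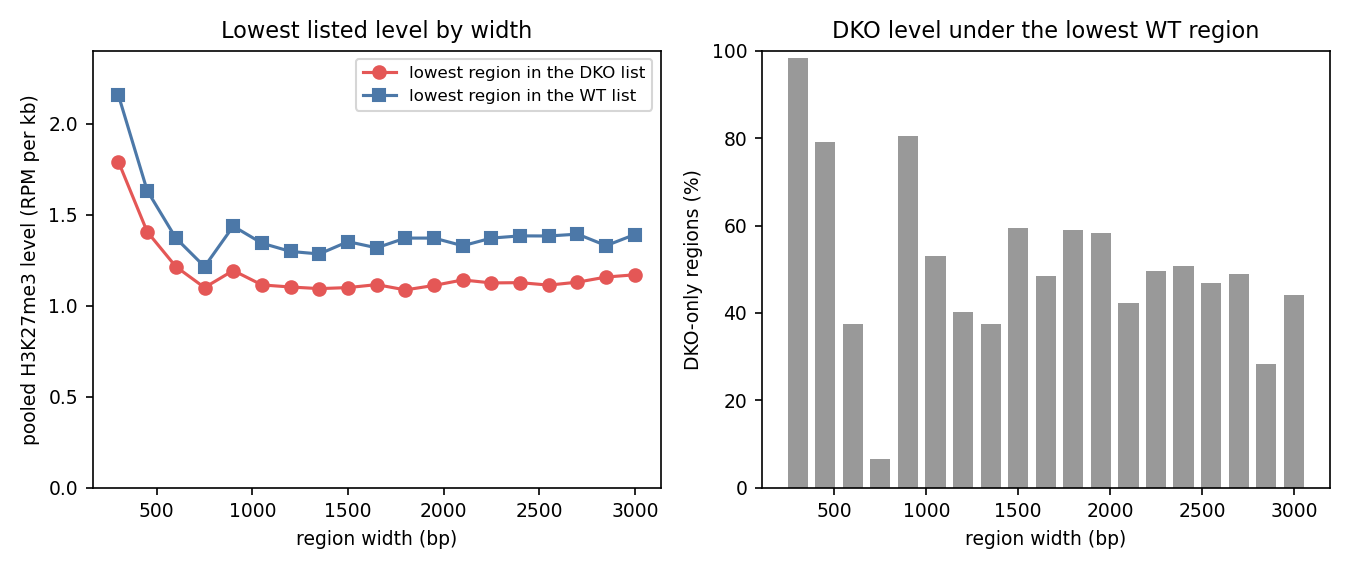
Left, the lowest pooled H3K27me3 level (RPM per kb) of any region in the DKO list and in the WT list, by region width in bp up to 3000. Right, the percent of DKO-only regions of that width whose pooled DKO level is under the lowest WT region, which is 98.4% at 300 bp.

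The difference narrowed with width. It was 0.61 at the median of the 300 bp regions, 0.51 above that up to 600 bp and 0.47 up to 1200 bp. Up to 3000 bp it was 0.40, and above 3000 bp 0.34. In the same width classes the difference at WT-only regions was -0.88, -0.74, -0.61, -0.42 and -0.44. At DKO-only regions the difference was also smaller close to WT regions, at 0.40 within 1 kb and 0.58 beyond 100 kb. Among the 3371 regions with at least 20 reads in each H3K27me3 library, a filter set after seeing the data, it was 0.31 and both DKO clones were above both WT clones at 50.1%. This filter keeps regions with more WT reads, so a smaller difference follows from it.

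Some of the widest DKO-only regions carried as much H3K27me3 in WT clones as many shared regions, and 4 of them are given here. The region of 22500 bp at Grm4 (chr17:27502201-27524700), a metabotropic glutamate receptor, had 1.93 and 1.23 in WT and 1.51 and 1.54 in DKO clones. The genotypes overlapped there, and no base of the region was listed in WT despite these levels. Near Lmx1b, a LIM homeobox factor of limb and neuron patterning, a region of 20850 bp had 1.56 and 0.81 in WT and 1.56 and 1.42 in DKO clones, and lay 300 bp from a WT region. At Sez6, a neuronal membrane protein, and Gm11190, the region of 16350 bp had 1.24 and 0.67 in WT and 1.34 and 1.04 in DKO clones. The region of 13950 bp near Gm26644 had 0.72 and 0.39 in WT and 0.96 and 0.74 in DKO clones. DKO clone 43 was the highest or level with the highest clone in 3 of these 4 regions, and WT clone 58 was the lowest in all 4.

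Other region lists held few of the DKO-only regions. The H3K4me3 list of DKO clones overlapped 1733 (8.02%) and that of WT clones 1833 (8.48%), against 29.9% and 34.6% of shared regions. For WT-only regions these H3K4me3 shares were 6.50% and 12.6%. The K4-K27 lists overlapped 1844 (8.53%) in DKO and 1577 (7.29%) in WT, and the K27-K4 lists 5432 (25.1%) in DKO and 4147 (19.2%) in WT. Of shared regions the K4-K27 lists overlapped 37.6% and 38.2%, and the K27-K4 lists 67.7% and 65.5%. Over all DKO-listed regions the K27-K4 shares were 39.2% in DKO and 34.5% in WT. Both DKO reChIP lists overlapped 1442 (6.67%), against 36.0% of shared and 6.66% of WT-only regions. No list of another ChIP in the clones overlapped 13337 DKO-only regions (61.7%), against 19% of shared and 60.4% of WT-only regions. Most regions listed in a single genotype thus stood in no clone list of another ChIP.

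H3K4me3 at the DKO-only regions was low in both genotypes. Its median was -1.0 and -0.56 in WT and -0.75 and -0.54 in DKO clones, and the median difference was 0.12, compared with -0.03 in shared regions. It was -0.10 without WT clone 57 and 0.27 without WT clone 58. Both DKO clones were above both WT clones at 18.9% of DKO-only regions and below at 13.3%, against 17.3% and 14.8% of all DKO-listed regions. These shares are near those of the whole table. Limma (|log2 difference| above 1 and Benjamini-Hochberg adjusted p under 0.05) called 0 of the 21621 regions, and 0% of the 32352 tested, while 723 DKO-only regions were higher and 521 lower in DKO at an unadjusted p under 0.05, out of 854 higher and 965 lower in the whole table.

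The reChIPs ask for both marks on the same fragment. K4-K27 had medians of -1.62 and -0.69 in WT and -0.66 and -0.55 in DKO clones, and its median difference of 0.19 rests on WT clone 57, which had no K4-K27 read at 41.2% of DKO-only regions. Without that clone the difference was -0.04, and with centred libraries it was -0.13. Both DKO clones were above both WT clones at 19% of DKO-only regions and below at 13.9%, against 18.2% and 15.8% of the table. For shared regions the K4-K27 shares were 16.7% and 19.7%. Limma called 0 DKO-only regions and 2 of all the regions tested, both lower in DKO (0.00618%), with 769 DKO-only regions higher and 485 lower at an unadjusted p under 0.05, out of 976 and 1016 in the table. With the 4 ChIPs in 1 fit limma called 605 DKO-only regions, 378 higher and 227 lower in DKO. In the table it called 501 higher and 484 lower. That fit takes 1 variance per region from all 4 ChIPs, including the H3K27me3 values that chose the regions. At DKO-only regions the median standard deviation between clones was 1.06 in K4-K27, 0.63 in K27-K4, 0.58 in H3K4me3 and 0.36 in H3K27me3. The calls therefore do not rest on the K4-K27 spread alone.

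K27-K4, which shares its first pull-down with the libraries that chose the regions, had medians of -0.08 and -0.03 in WT and 0.10 and 0.05 in DKO clones. The median difference was 0.20, compared with -0.08 in shared and -0.19 in WT-only regions. Both DKO clones were above both WT clones at 22.9% of DKO-only regions and below at 13.7%, against 20.7% and 16.8% of the table. For shared regions the K27-K4 shares were 16.2% and 23.1%. Limma called 0 DKO-only regions and 0% of the table, with 867 DKO-only regions higher and 635 lower at an unadjusted p under 0.05, out of 1011 and 1348 in the table. The median standard error of a region's difference was 0.63 for H3K4me3, 1.17 for K4-K27 and 0.70 for K27-K4, so changes of the size seen in H3K27me3 were not detectable at single regions. Leaving out WT clone 58 gave 280 limma calls in H3K4me3 among the DKO-only regions (161 higher and 119 lower in DKO, out of 191 and 417 in the table). In K27-K4 it gave 176 (148 and 28, out of 166 and 300), whereas leaving out DKO clone 43 gave 1 higher and 32 lower and leaving out DKO clone 53 gave 0 higher and 25 lower. These fits assume that the lone clone varies like those of the other genotype.

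DKO-only regions were also divided by whether H3K4me3 was listed there. The 1306 regions with H3K4me3 listed in both genotypes had a median H3K4me3 difference of -0.07, the 527 with it in WT alone -0.76 and the 427 with it in DKO alone 0.47. The H3K27me3 difference was nearly the same in these groups, at 0.51, 0.46 and 0.48. These lists were drawn from the H3K4me3 values, so the H3K4me3 differences describe the lists.

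DKO-only regions at promoters belonged to 1562 genes, 6.31% of the 24746 genes with a RefSeq start site used here, and 12.8% of genes had a shared region. Median H3K27me3 at the 1607 promoter regions was 0.34 and 0.05 in WT and 0.68 and 0.59 in DKO clones, and the median difference of 0.45 was close to that of the other regions. Median differences there were -0.04 for H3K4me3, 0.06 for K4-K27 and 0.19 for K27-K4. The 10 promoter regions with the largest H3K27me3 difference, among the 626 with both DKO clones above both WT clones and at least 20 reads in each DKO library, are given next. Pooled ratios are read counts scaled to depth with a 95% exact interval that covers counting error only, and the genes were chosen for these differences, with both DKO clones above both WT clones, so the ratios and the separation are a description.

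Klhl13 encodes a substrate adaptor of a cullin ubiquitin ligase. Its region of 1350 bp (chrX:23364451-23365800) had 6 and 1 H3K27me3 reads in WT clones and 44 and 51 in DKO clones, or levels of -2.05, -4.40, 0.83 and 0.16. The pooled ratio was 8.86 (4.14 to 22.6). H3K4me3 on this region was 2.86 and 1.59 in WT and 1.66 and 1.84 in DKO clones, overlapping between the genotypes. K27-K4 was 1.41 and 0.12 in WT and 1.91 and 1.66 in DKO clones, and its difference of 1.02 did not pass the limma test (adjusted p = 0.69).

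Smim10l2a (chrX:56374351-56375100) had 6 and 1 reads in WT and 24 and 33 in DKO clones, a pooled ratio of 5.31 (2.42 to 13.8). The IgG–IgG library had 14 reads there, a level of 0.32 that is close to that of DKO clone 53 (0.38), with 0.81 in DKO clone 43. Arap2, a GTPase-activating protein for Arf proteins, had 5 and 1 reads in WT and 20 and 23 in DKO clones in its region of 600 bp (chr5:62765401-62766000), a ratio of 4.68 (1.98 to 13.5), with no IgG–IgG read. Both regions lie far from any WT region, with gaps of 950550 and 476400 bp.

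Efs, an adaptor protein of Src family kinases, had the most reads of the 10. Its region of 2250 bp (chr14:54924751-54927000) had 13 and 18 reads in WT and 88 and 125 in DKO clones, or levels of -1.67, -0.96, 1.10 and 0.71, and a ratio of 4.48 (3.07 to 6.77). K27-K4 there was 1.34 and 0.85 in WT and 2.79 and 2.48 in DKO clones, a difference of 1.55 that did not pass the limma test (adjusted p = 0.36). H3K4me3 was 3.45 and 1.90 in WT and 2.29 and 2.35 in DKO clones, and K4-K27 was 2.76 and 1.99 in WT and 3.13 and 1.96 in DKO clones. Both H3K27me3 and K27-K4 were thus higher in each DKO clone than in each WT clone at Efs, and H3K4me3 and K4-K27 overlapped.

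The other 6 had pooled ratios between 2.34 and 3.19. They were the regions at Sash1, a scaffold protein (3.19), Cyrib, a regulator of Rac signalling to actin (3.18), Tm2d3 (3.11), Ahr, the aryl hydrocarbon receptor (2.98), Pitrm1, a mitochondrial protease (2.81), and Ccdc71l (2.34). Ahr was the exception among the 10 in having no H3K4me3 region in either list, and its H3K4me3 level was -0.26 and -0.74 in WT and -1.57 and -2.54 in DKO clones. The other 9 had an H3K4me3 region in both genotypes. None of the 10 was called by limma in H3K4me3, K4-K27 or K27-K4.

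**Figure D4:**
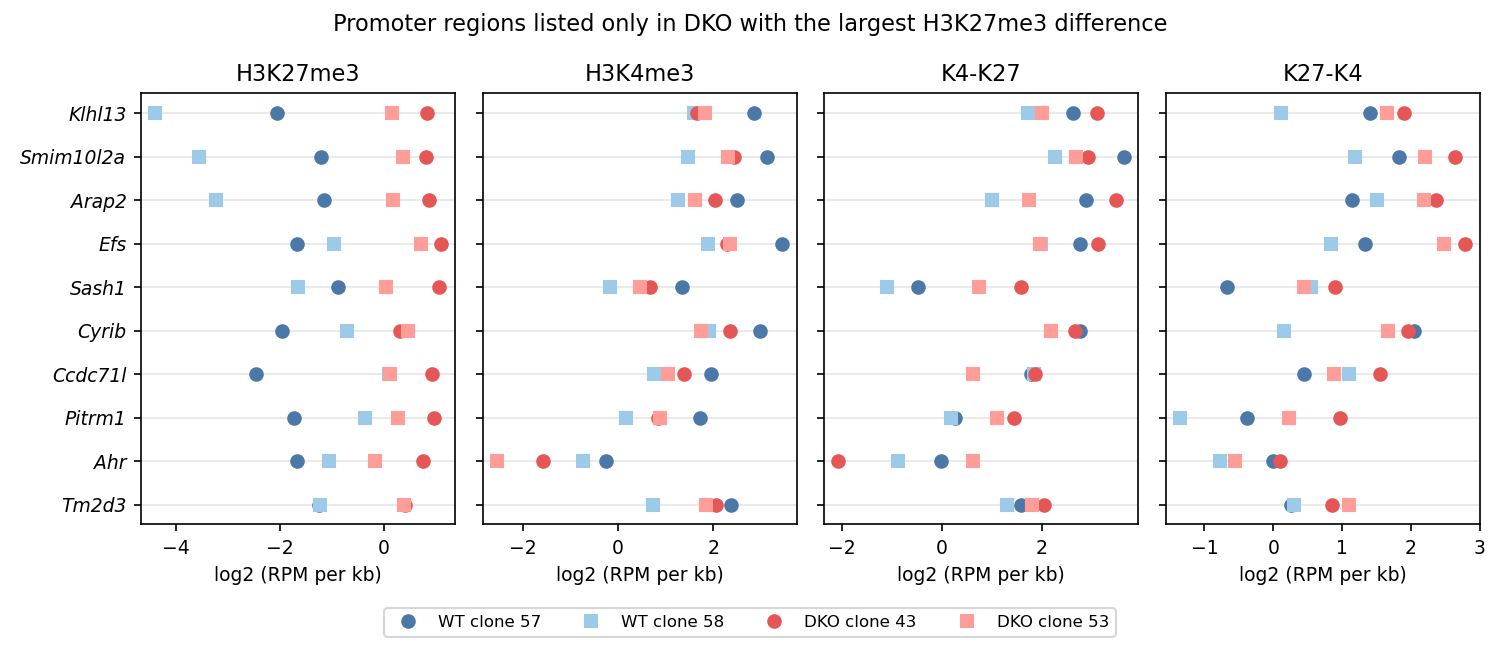
Level (log2 RPM per kb) in WT clones 57 and 58 and DKO clones 43 and 53 of the 10 promoter regions listed only in DKO with the largest H3K27me3 difference, in 4 panels by ChIP. The H3K27me3 panel shows the separation for which the regions were chosen, from Klhl13 (difference 3.72) to Tm2d3 (1.64), while H3K4me3 and K4-K27 overlap at most genes.

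The distal regions shown above had no H3K27me3 read in either WT clone. The one near Ms4a13 had 11 and 19 reads in DKO clones, and that near Vrk1 had 10 and 19. They were chosen for this contrast, so the counts are a description. IgG–IgG also had 0 reads at both. Regions without a read in a WT clone were rare, as given above.

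Few promoters of developmental regulators were in DKO-only regions. Of 225 developmental regulators (Hox, Sox, Fox, Pax, Wnt and related families), 7 (3.11%) had a DKO-only region, namely Foxa3, Foxi3, Sox4, Sox6, Sox9, Wnt5b and Wnt6, while 148 (65.8%) had a shared and 22 a WT-only region. Over all 24746 genes the shares were 6.31% with a DKO-only and 12.8% with a shared region, and 1129 genes had a WT-only region. At these 7 the median difference was 0.31, and both DKO clones were above both WT clones at 2. Sox4 had 0.88 and 0.77 in WT and 0.61 and 1.21 in DKO clones, and Foxa3 had 0.56 and 0.17 in WT and 0.76 and 0.88 in DKO clones. Of 351 genes for neuronal channels, receptors and adhesion proteins, 38 (10.8%) had a DKO-only region, 168 (47.9%) a shared one and 56 a WT-only one. The median difference at the 38 was 0.43, and both DKO clones were above both WT clones at 14. Cntnap5c, a neurexin family adhesion protein, had -0.24 and -0.23 in WT and 0.66 and 0.42 in DKO clones. Gria3, an AMPA receptor subunit, had 0.19 and -0.23 in WT and 1.02 and 0.13 in DKO clones.

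The remaining lists held few such regions. Sensory receptor genes had them at 18 of 1535 (1.17%), with a shared region at 10 (0.65%) and a WT-only region at 12. Among the 18 was Olfr1411, with -0.56 and -0.14 in WT and 0.45 and 0.46 in DKO clones. In the germline list 1 of 22 genes had a region (Brdt, a testis bromodomain protein), while 4 had a shared and 10 a WT-only region. In the imprinted list 1 of 27 genes had one (Magel2), with a shared region at 12 and a WT-only region at 2. Among Polycomb components it was 1 of 26 (Pcgf5, a subunit of a variant PRC1 complex), with a shared region at 6. Pcgf5 had levels of 1.29 and 0.75 in WT and 1.35 and 1.12 in DKO clones over 7500 bp. No DKO-only region lay at a promoter of the 18 two-cell stage or 20 pluripotency genes. Limma called no region at a promoter of any list in H3K4me3, K4-K27 or K27-K4.

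CpG-dense promoters were few among DKO-only regions, and some of those with large differences were on the X chromosome. Of the 153 promoter regions with more than 4 CpGs per 100 bases, 17 (11.1%) were on X, which held 224 (1.04%) of all DKO-only regions. Among shared regions, 31 of 339 CpG-dense promoter regions were on X. Median H3K27me3 at these 17 was 0.05 and -0.42 in WT and 0.67 and 0.42 in DKO clones, a median difference of 0.87. Both DKO clones were above both WT clones at 12 of 17 (70.6%), against 56.2% of all CpG-dense promoter regions. A difference over 1 was seen at 19 CpG-dense promoter regions, 6 of them on X. This grouping was made after the values were seen and was not tested.

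Besides Smim10l2a, the 6 were Prps2, Fndc3c1, Mbnl3, Fhl1 and Reps2. Prps2, a synthetase of the nucleotide precursor PRPP, had -1.79 and -1.23 in WT and 0.13 and 0.33 in DKO clones. Mbnl3, a splicing regulator, had -0.47 and -1.23 in WT and 0.54 and 0.19 in DKO clones, and Fhl1, a LIM domain protein, had -0.66 and -0.53 in WT and 0.71 and 0.46 in DKO clones. At Fgf13, the only one of the 17 with a lower DKO mean, levels were 1.23 and 0.58 in WT and 0.92 and 0.57 in DKO clones. H3K4me3 at the 17 had a median difference of -0.27 and K27-K4 of 0.13. All of these regions but Tex11 overlapped an H3K4me3 region of at least 1 genotype.

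DKO-only regions were spread over all autosomes and X, and were densest on chromosome 8. It held 2291 of them, or 17.7 per Mb and 76.0% of its DKO-listed regions. The next was chromosome 11 with 11.3 per Mb, and X had the fewest with 1.31 per Mb. WT-only regions showed no such peak on chromosome 8, with 3.63 per Mb. At the 21527 H3K27me3 regions listed in E14 cells, a set not drawn from the clones, the chromosome 8 median stood above that of all chromosomes by 0.11 and 0.13 in WT clones and by 0.18 and 0.32 in DKO clones. H3K4me3 at the same E14 regions stood above by 0.17 and 0.15 in WT and by 0.21 and 0.32 in DKO clones. Signal on chromosome 8 was thus highest in DKO clone 53 in both ChIPs, and the part of this in the count of regions was not tested. The DKO-only regions of chromosome 8 also had the highest median differences of any chromosome in H3K4me3 (0.26), K4-K27 (0.34) and K27-K4 (0.32). Without chromosome 8 the median H3K27me3 difference at DKO-only regions was 0.49 and both DKO clones were above both WT clones at 52.5%, so neither value depended on it. By chromosome the median difference ran from 0.44 on chromosome 4 to 0.62 on X.

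**Figure D5:**
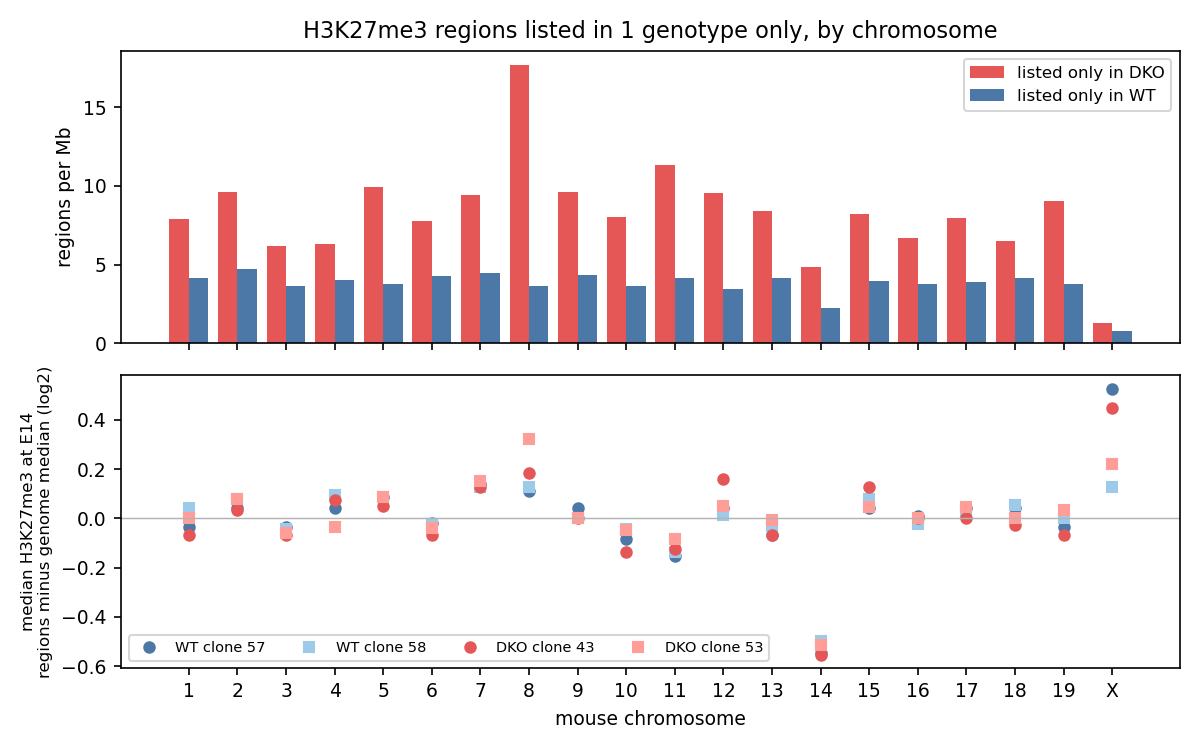
Top, regions per Mb listed only in DKO or only in WT, by chromosome. Bottom, the median H3K27me3 level (log2) at E14 regions on each chromosome minus the median over all chromosomes, for each clone. Chromosome 8 has 17.7 DKO-only regions per Mb and stands highest in DKO clone 53 (0.32).

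E14 cells, whose libraries took no part in the choice, had an H3K27me3 region at 1782 of the DKO-only regions (8.24%), against 33.7% of shared and 14.2% of WT-only regions. At the 1758 E14 regions that overlap DKO-only regions but no other DKO region, the median level was 0.52 and 0.63 in the E14 replicates. In the clones it was 0.39 and 0.10 in WT and 0.66 and 0.46 in DKO. The median difference between genotypes there was 0.29, with both DKO clones above both WT clones at 34.2% and below at 2.96%, whereas it was 0.02 at E14 regions overlapping shared regions, with 9.56% and 11.6%. Over all E14 regions both DKO clones were above at 15.2% and below at 17.4%. So at the boundaries drawn in E14 cells the difference kept its direction and was smaller than at the boundaries drawn in DKO clones, although the overlap with DKO-only regions still selects for it. DKO-only regions overlapping an E14 region differed by 0.38, and the others by 0.50.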

How the data were processed

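The 26 libraries were totals, reChIPs and IgG–IgG controls of the clones and of E14 cells. Reads were trimmed with Trim Galore 0.6.6, aligned to GRCm38 (mm10) with BWA 0.7.13 and marked for duplicates with Picard 2.6.0 (submitters' processing notes, which also name MACS2 and deepTools without a role). The values that the authors deposited are log2 RPM per kb over listed regions from SeqMonk, with mapping quality over 20, reads extended by 200 bp, duplicates kept and no IgG–IgG subtraction. All were whole reads (tolerance 0.02), with 0 entered as 0.9 reads. The authors describe EPIC2 peak calling against IgG–IgG per replicate in bins that do not match the 150 bp steps of these lists, so how the lists were called is not given in the sources used here. In the tables, 32 columns belong to no sample given here and were not used.

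Regions, promoters (RefSeq start sites), nearest genes and composition were joined in Python 3.11.15 (pandas 2.3.3, numpy 2.4.6, matplotlib 3.10.9). DKO and WT clones were compared with limma 3.58.1 in R 4.3.3 (lmFit, eBayes with trend and robust) over all 32352 DKO-listed regions, after the test was tried on simulated data. Total H3K27me3 chose the regions and was not tested. A region was called at |log2 difference| above 1 and Benjamini-Hochberg adjusted p under 0.05. Intervals cover counting error only.

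Named regions were the 10 promoter regions with the largest H3K27me3 difference, the 5 widest (of which 1 is not reported here), up to 3 per gene list and those nearest the edge of the rule. The X-linked and distal regions were chosen after their values were seen. The DKO-only regions and the lists were chosen with earlier results of these data known. Alternatives covered scaling, filters, variance model, fit, region rules and each clone left out.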

Additional observations from a re-analysis of the deposited data

How the results depend on the processing

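The number of DKO-only regions was between 18772 and 23798 under other overlap rules and reference lists, and 8290 with a listing level reaching that of WT, an alternative chosen after seeing the data. The promoter share was 5.18% with promoters from 1 kb upstream to 100 bp downstream, 16.3% with 5 kb either side and 9.03% for regions wider than 300 bp. The overlap with E14 regions was 6.16% with at least 50% of bases covered and 9.76% for regions wider than 300 bp. The filter on width, the listing level, the minimum of 20 reads and the exclusion of chromosome 8 were added after seeing the data.

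The H3K27me3 difference stayed above 0 in all alternatives run, a direction fixed by the choice of regions. It was 0.079 under quantile normalisation, and between 0.37 (without WT clone 58) and 0.57 (without WT clone 57) with a clone left out. The share of regions with both DKO clones above both WT clones was 25.2% with centred libraries, 19.8% after quantile normalisation, 41.8% without the lowest quartile, 54.5% with no WT region within 1 kb, 50.1% with at least 20 reads in each library and 56.3% at the WT listing level. The centred and quantile-normalised values were computed over a table in which most regions are DKO-only, and the part of this in their size was not tested. The median difference with a clone left out ranged from -0.10 (without WT clone 57) to 0.27 in H3K4me3, from -0.04 (without WT clone 57) to 0.45 in K4-K27 and from 0.11 to 0.26 in K27-K4.

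Limma calls among DKO-only regions, 0 in each ChIP as reported, moved as follows, and the cause was not tested. H3K4me3 had 6 after quantile normalisation and 0 to 280 with a clone left out (280 without WT clone 58, 3 without DKO clone 43 and 6 without DKO clone 53). K4-K27 had 4 with centred libraries, 36 after quantile normalisation, 7 without the lowest quartile, 605 with all ChIPs in 1 fit and 0 to 25 with a clone left out (16 without WT clone 57 and 25 without WT clone 58). K27-K4 had 44 after quantile normalisation, 11 with WT-only regions in the fit (1 higher and 10 lower in DKO), 10 with all ChIPs in 1 fit (9 and 1) and 25 to 176 with a clone left out (26 without WT clone 57, 24 higher and 2 lower; 176 without WT clone 58, 148 and 28; 33 without DKO clone 43, 1 and 32; 25 without DKO clone 53, 0 and 25). A fit without 1 clone assumes that the lone clone varies like the other genotype. The other alternatives gave 0 calls.

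No paired analysis was possible because the WT and DKO clones carry different clone numbers. With 2 clones per genotype and median counts of 10 to 30 H3K27me3 reads a region, counting error limits single regions.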

Other observations

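The reChIP lists divided the DKO-only regions in both directions. A K27-K4 region was listed in DKO but not in WT at 3294 of them, in WT but not in DKO at 2009 and in both at 2138. The median total H3K27me3 difference was 0.47, 0.37 and 0.41 in these groups, and its direction in each is fixed by the choice of regions. For K4-K27 the groups held 824 (DKO alone), 557 (WT alone) and 1020 regions (both), with median H3K27me3 differences of 0.51, 0.40 and 0.45. The lists were drawn from the reChIP values, and none of these differences was tested.

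On chromosome 14 between 40 and 90 Mb there were 89 DKO-only regions, with a median H3K27me3 difference of 0.72. Leaving them out changed the median difference over all DKO-only regions by less than its last printed digit, to 0.49.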
